A study of Mus musculus with 84 samples.

Results

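The endfoot genes Aqp4, Kcnj10, Kcnj16, Dtna, Dag1, Mlc1 and Hepacam were followed through 2 sequencing experiments on sorted mouse astrocytes. They were taken as a fixed list of genes whose products sit at or near the astrocyte membrane facing blood vessels. The list held 7 of the 48526 genes counted in the experiment on experimental autoimmune encephalomyelitis (EAE) and 7 of the 25773 genes counted in the experiment on astrocyte subtypes. All 7 passed the filter on low counts in both experiments.

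Astrocytes cover the vessels of the brain and spinal cord with flattened processes called endfeet, which carry water, potassium and signals between blood and tissue. Dystroglycan anchors the endfoot to laminin and related proteins of the vessel's basement membrane, and an intracellular dystrophin-associated complex that includes dystrobrevin holds the water channel aquaporin-4 and potassium channels in place there. Another membrane assembly, formed by the proteins of Mlc1 and Hepacam, is known for its part in volume control and in a human leukodystrophy with swollen white matter. EAE is a model of multiple sclerosis in which immune cells enter the nervous system, often with the heaviest lesions in the spinal cord.

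The EAE experiment comprised 66 libraries in 12 groups of female C57BL/6 mice that were 10 weeks old at immunization with a myelin oligodendrocyte glycoprotein (MOG) peptide in complete Freund's adjuvant, given with pertussis toxin. Controls were not immunized, so the peptide, the adjuvant and the toxin differed together between controls and EAE mice. Cells were sorted as ACSA-2-positive astrocytes and split by the surface transporter GLAST into hindbrain GLASTneg, hindbrain GLASTpos and spinal cord GLASTneg cells. Each of these 3 populations was taken from controls (n = 5 libraries each), at score 1 with a limp tail (n = 6, 6 and 5), at score 4 with paralysed hind legs (n = 6 each) and at the chronic stage (n = 6, 4 and 6). The subtype experiment comprised wildtype FVB/N mice of unstated age, with 3 libraries each labelled forebrain GLASTneg, forebrain GLASTpos, hindbrain GLASTneg, hindbrain GLASTpos and spinal cord GLASTneg, and 3 libraries of cultured neonatal cerebral astrocytes of C57BL/6J mice. These cultured cells were what remained after microglia had been shaken off. A library of sorted cells held the RNA of at most 2 mice, and for cultured libraries the number of animals is not stated.

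Levels are counts per 1e6 counts of the library (CPM), scaled with the trimmed mean of M-values (TMM). Libraries of the EAE experiment held 1313682 to 4895220 counts, isolated FVB/N libraries 416768 to 1269316 and cultured libraries 2183464 to 8188074. For 1 spinal cord library at score 1 (replicate 1) another label names hindbrain, and the title was followed. Its summed level of Hox genes, which mark the caudal axis, was 584 CPM, within the 308 to 676 CPM of the score 1 group. The spinal cord library of control replicate 3 had the highest summed level of oligodendrocyte markers of its group, 41875 CPM, and that of score 4 replicate 2 had 4673 CPM of myeloid markers against 130 to 284 CPM in the other 5, so results that rest on these libraries are given with and without them.

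The promoter sequences of the 2 potassium channel subunits and of dystroglycan are shown because these 3 genes ended at different levels in the same spinal cord libraries. Each is the 250 bases before a RefSeq transcription start in GRCm38.p6, written 5′ to 3′ on the gene's own strand, with CG dinucleotides in capitals. They lie at chr1:172340960-172341209 (plus strand) for Kcnj10, chr11:110967783-110968032 (plus strand) for the first of 4 listed starts of Kcnj16 and chr9:108263959-108264208 (minus strand) for the outer of 2 listed starts of Dag1, in each case just outside the gene.
Kcnj10: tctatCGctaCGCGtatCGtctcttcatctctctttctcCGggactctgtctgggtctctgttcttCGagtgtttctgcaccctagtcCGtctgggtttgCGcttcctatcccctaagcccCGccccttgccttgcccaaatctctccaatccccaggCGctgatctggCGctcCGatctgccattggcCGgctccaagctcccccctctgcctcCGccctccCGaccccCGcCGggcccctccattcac
Kcnj16: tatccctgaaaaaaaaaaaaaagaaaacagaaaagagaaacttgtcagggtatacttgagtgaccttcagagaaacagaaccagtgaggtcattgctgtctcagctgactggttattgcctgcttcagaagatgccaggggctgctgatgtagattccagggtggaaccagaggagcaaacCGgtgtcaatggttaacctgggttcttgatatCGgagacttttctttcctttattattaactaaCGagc
Dag1: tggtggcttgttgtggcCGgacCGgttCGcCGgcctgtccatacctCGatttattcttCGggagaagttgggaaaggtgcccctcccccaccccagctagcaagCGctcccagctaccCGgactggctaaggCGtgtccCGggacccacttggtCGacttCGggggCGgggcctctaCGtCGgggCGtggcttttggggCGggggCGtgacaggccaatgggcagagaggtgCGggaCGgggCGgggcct
The Kcnj10 window held 17 CG dinucleotides and 62% G or C, the Dag1 window 21 and 67.6%, and the Kcnj16 window 3 and 42.8%. Windows before the other listed starts held 7, 4 and 1 CG dinucleotides for Kcnj16 and 36 for Dag1, so a printed window does not stand for every start of its gene. Over all 32851 promoters of the same table the medians were 6 CG dinucleotides and 52.4% G or C, and 23.5% of them held 17 or more, 16.3% held 21 or more and 37.8% held 3 or fewer. The protein-coding genes Mlc1 and Hepacam lie at chr15:88955884-88979007 (minus strand) and chr9:37367351-37386575 (plus strand) of GRCm38. Their windows, not printed because they lie within an annotated exon, held 0 and 4. Aqp4 and Dtna were not matched.

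In these windows 5 motifs were searched on both strands. The STAT motif TTCNNNGAA, present in 7.02% of all promoters, occurred in the Kcnj16 window as TTCAGAGAA, 185 to 177 bases before the start. The nuclear factor I motif TTGGCA, present in 12.3%, occurred in the Hepacam window, 39 to 34 bases before the start, and before 2 of the other Kcnj16 starts. An E-box, CANNTG, was present in 66.2% of promoters, and was found before the first start of Kcnj16 and in the Dag1, Mlc1 and Hepacam windows. Neither the SOX motif ACAATG (10.7% of promoters) nor the cyclic AMP response element TGACGTCA (1.55%) was found before any matched member. These matches describe letters only, since reads were taken from the 3′ ends of transcripts and the start in use was not measured.

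In the spinal cord, all 7 endfoot genes were lower at score 4 and at the chronic stage than in controls, and 3 were already lower at score 1. The fall was very uneven: at score 4 Mlc1 was 21.3-fold lower, Aqp4 11.4-fold, Kcnj16 9.32-fold, Dag1 4.57-fold and Dtna 3.59-fold, and Hepacam and Kcnj10 were only 1.56-fold and 1.43-fold lower. In the hindbrain only 1 of 42 tests against controls passed, for Kcnj10 in GLASTpos cells at score 1.

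**Figure D1:**
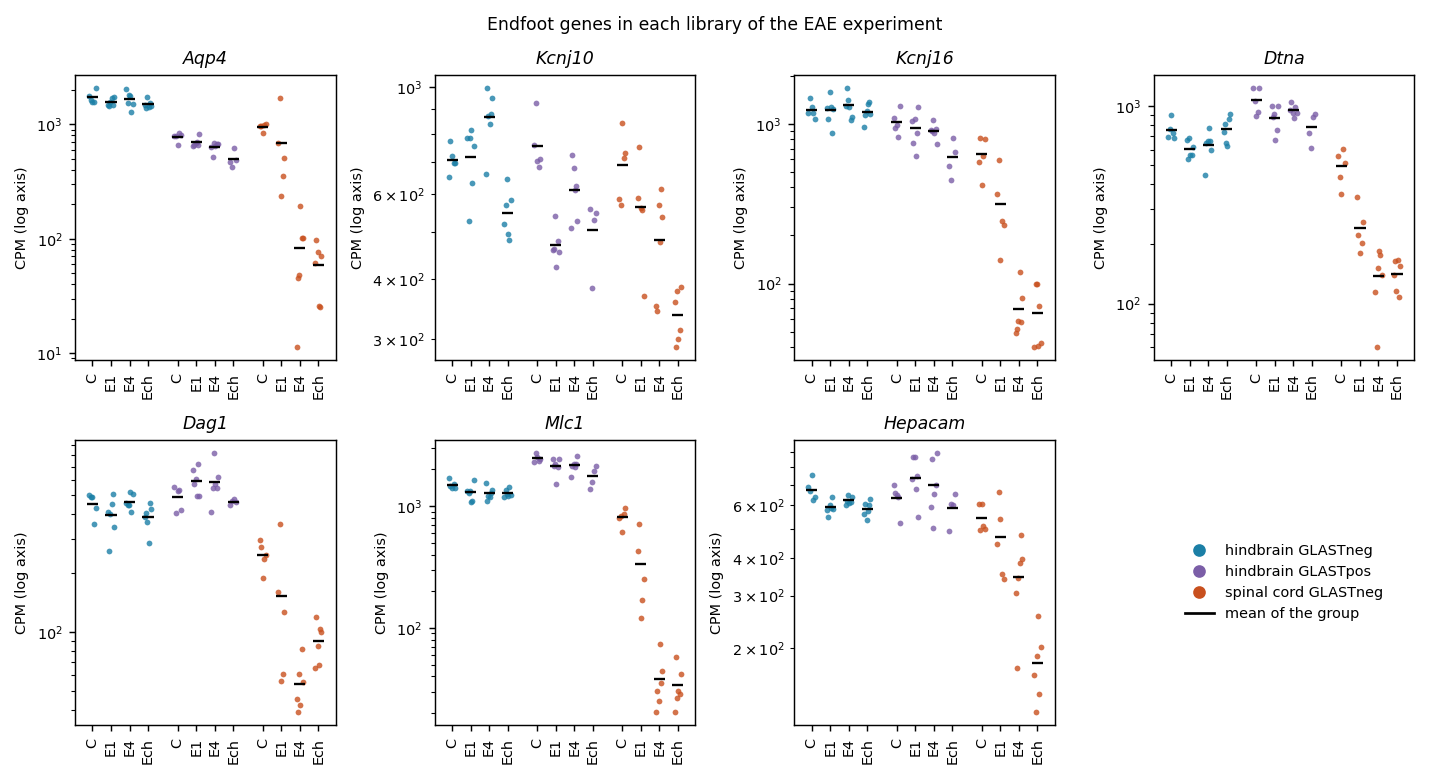
Level of each endfoot gene (CPM, log axis) in each of the 66 EAE libraries, by population and stage, with 1 point per library and the group mean as a bar. Spinal cord Mlc1 lies between 613 and 962 CPM in controls and between 20.3 and 73.9 CPM at score 4, while hindbrain GLASTneg Mlc1 lies between 1079.9 and 1689.6 CPM in all stages.

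Aqp4 encodes aquaporin-4, the main water channel of the endfoot. Its levels in the 5 spinal cord control libraries were 965, 975, 834, 989 and 1014 CPM. At score 1 they were 685, 1689.5, 235, 352 and 508 CPM, so 4 libraries lay below all controls and replicate 2 above them. At score 4 the 6 libraries ranged from 11.3 to 195 CPM (median 74.3) and at the chronic stage from 25.5 to 96.6 CPM (median 65.9), all below the lowest control. The log2 fold change against controls was −0.46 (SE 0.32; adjusted p = 0.38, edgeR quasi-likelihood test with Benjamini-Hochberg adjustment over 23324 genes, as for every adjusted p of this experiment) at score 1, which did not pass. It was −3.51 (SE 0.33; adjusted p = 3.7e-14), 11.4-fold lower, at score 4 and −4.00 (SE 0.34; adjusted p = 5e-16), 16.0-fold lower, at the chronic stage. Without replicate 2 of score 1, Aqp4 passed at that stage as well (−1.11, adjusted p = 0.011). That library had the highest summed level of 8 astrocyte markers of its group, 14813 CPM against 3780.5 to 8030.5 CPM in the others. It also had the lowest summed level of oligodendrocyte markers of its group, 26912 CPM. The part of these markers was not tested.

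Kcnj10 and Kcnj16 encode inwardly rectifying potassium channel subunits, which form channels together, and the Kcnj10 product also forms channels on its own. In spinal cord controls Kcnj10 was at 585, 570.5, 842, 713 and 729.5 CPM and at score 1 at 588, 750.2, 561, 557 and 369 CPM. It ranged from 344 to 614 CPM (median 507) at score 4 and from 289 to 385 CPM (median 335) at the chronic stage. The score 1 and score 4 libraries overlapped the controls, and all chronic libraries lay below them. Kcnj10 did not pass at score 1 (log2 fold change −0.29, SE 0.17, adjusted p = 0.27), fell 1.43-fold at score 4 (−0.51, SE 0.16, adjusted p = 0.012) and 2.04-fold at the chronic stage (−1.03, SE 0.16, adjusted p = 4.1e-07). The score 4 call was lost without control replicate 3 (−0.43, adjusted p = 0.053), without score 4 replicate 1 (−0.41, adjusted p = 0.071) and without control replicate 3 and score 4 replicate 2 together (−0.34, adjusted p = 0.15).

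The partner subunit Kcnj16 was at 581, 814, 414, 631 and 802 CPM in spinal cord controls and at 363, 595, 140.2, 248 and 234 CPM at score 1. Score 4 libraries held 49.1 to 118 CPM (median 58.1) and chronic libraries 40.0 to 99.4 CPM (median 57.6). Only replicate 2 of score 1 reached into the control range, and no score 4 or chronic library did. Kcnj16 fell at each stage, with log2 fold changes of −1.04 (SE 0.25, adjusted p = 0.0031), −3.22 (SE 0.25, adjusted p = 1.6e-17; 9.32-fold) and −3.30 (SE 0.25, adjusted p = 7e-18; 9.84-fold). The score 1 call was lost in a fit of spinal cord libraries only (−1.01, adjusted p = 0.059).

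Dystroglycan, the product of Dag1, is the transmembrane receptor of the complex. Dag1 levels were 295, 271, 189, 235 and 247 CPM in spinal cord controls and 160.1, 358, 55.7, 61 and 126 CPM at score 1. They spread from 38.6 to 81.4 CPM (median 50.3) at score 4 and from 64.9 to 119.5 CPM (median 92.2) at the chronic stage. At score 1 replicate 2 exceeded every control and the other 4 lay below them all, whereas the later stages did not overlap controls. Dag1 did not pass at score 1 (log2 fold change −0.70, SE 0.25, adjusted p = 0.063), fell 4.57-fold at score 4 (−2.19, SE 0.24, adjusted p = 1.6e-11) and was 2.75-fold below controls at the chronic stage (−1.46, SE 0.24, adjusted p = 1.4e-06). Without replicate 2 of score 1 the score 1 difference was −1.30 (adjusted p = 1.8e-05), and without control replicate 3 it was −0.79 (adjusted p = 0.041).

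Dtna encodes alpha-dystrobrevin, a cytoplasmic scaffold of the complex. In controls it was at 557, 438, 356, 603 and 515 CPM and at score 1 at 346, 221, 181, 201 and 258 CPM, with no overlap. It was at 60.2 to 184 CPM (median 145) at score 4 and at 108 to 165 CPM (median 147) at the chronic stage, again below every control. The log2 fold changes were −1.03 (SE 0.19, adjusted p = 9.8e-05), −1.85 (SE 0.18, adjusted p = 3.1e-13; 3.59-fold) and −1.81 (SE 0.18, adjusted p = 8.2e-13; 3.5-fold). Among the 7 genes, Dtna was the only one whose score 1 libraries all lay below the controls.

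Mlc1 encodes a membrane protein of astrocyte contacts at vessels, and mutations in the human gene cause the leukodystrophy named above. Its spinal cord levels were 804, 831, 613, 858 and 962 CPM in controls and 429, 709.6, 120.1, 169 and 254 CPM at score 1. They were 20.3 to 73.9 CPM (median 33.0) at score 4 and 20.2 to 57.5 CPM (median 29.6) at the chronic stage. A single score 1 library, replicate 2, lay within the control range. Mlc1 had the largest fall of the 7 genes at every stage, with log2 fold changes of −1.28 (SE 0.25, adjusted p = 0.00031), −4.41 (SE 0.27, adjusted p = 1e-21; 21.3-fold) and −4.57 (SE 0.27, adjusted p = 1.8e-22; 23.8-fold).

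Hepacam encodes GlialCAM, an adhesion protein that binds the Mlc1 product and guides it to cell contacts. It was at 603, 494, 604, 510.3 and 500.2 CPM in controls and at 445, 664, 540.0, 353 and 339 CPM at score 1. At score 4 it ranged from 172 to 476 CPM (median 364) and at the chronic stage from 123 to 256 CPM (median 176). The score 1 libraries overlapped the controls, and the later ones lay below them. Hepacam did not pass at score 1 (log2 fold change −0.21, SE 0.18, adjusted p = 0.51), fell 1.56-fold at score 4 (−0.65, SE 0.17, adjusted p = 0.0034) and 3.03-fold at the chronic stage (−1.60, SE 0.18, adjusted p = 1.6e-11). The score 4 call was lost without control replicate 3 and score 4 replicate 2 together (−0.45, adjusted p = 0.059) and in a fit of spinal cord libraries only (−0.59, adjusted p = 0.071).

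Counted over the list, 3 of 7 genes passed as lower at score 1, where 4.48% of all genes tested did, 7 of 7 at score 4 (12.7% of all genes) and 7 of 7 at the chronic stage (11%). All libraries lay below all controls for 1 of 7 genes at score 1 (2.32% of all genes), 6 of 7 at score 4 (7.01%) and 7 of 7 at the chronic stage (6.65%). The median log2 fold change of the 7 was −0.70, −2.19 and −1.81, beside a median of 0.0 over all genes at each stage. Leaving out score 1 replicate 1, whose labels disagree, kept Kcnj16, Dtna and Mlc1 as the 3 genes that passed at score 1. Without score 4 replicate 2 all 7 passed at score 4. The labels also carry a sheet number of unstated meaning, which was at most 56 in 0 of 5 spinal cord controls, 1 of 5 libraries at score 1, 5 of 6 at score 4 and 2 of 6 at the chronic stage. In a fit of spinal cord libraries only, 14 of the 21 tests against controls passed in place of 17, and the calls lost were Kcnj16 at score 1 (−1.01, adjusted p = 0.059) and Kcnj10 (−0.46, adjusted p = 0.1) and Hepacam (−0.59, adjusted p = 0.071) at score 4. With the sheet range added to that fit as a covariate the count was again 14, without the same 3 calls (−0.98, adjusted p = 0.08; −0.33, adjusted p = 0.52; −0.76, adjusted p = 0.12).

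**Figure D2:**
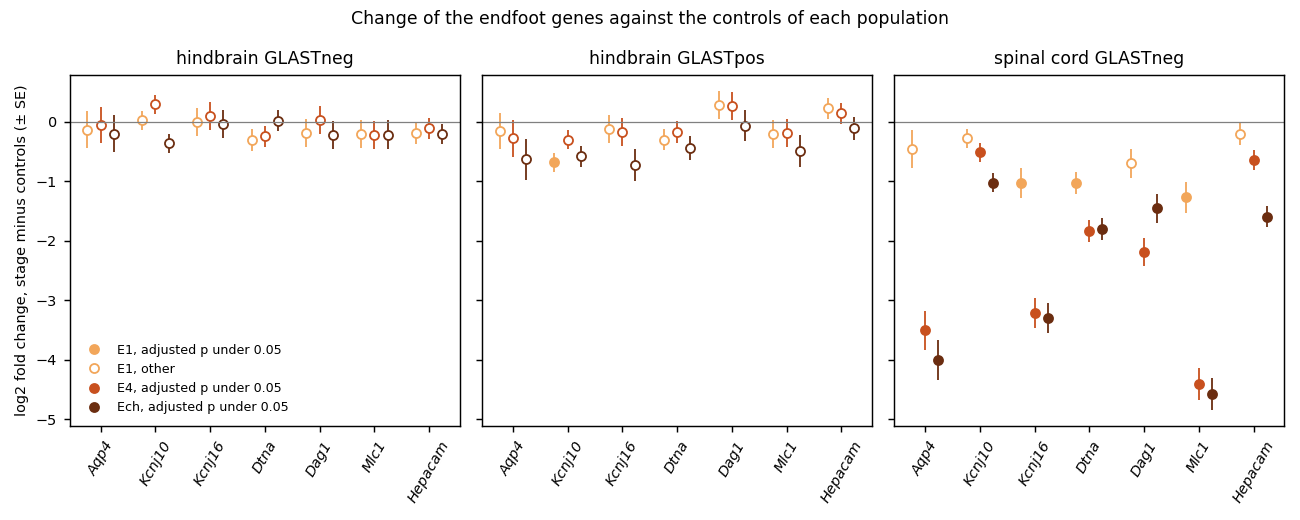
Log2 fold change of each endfoot gene against controls of the same population, with 1 panel per population, points for the 3 stages and bars of 1 standard error. In the spinal cord the score 4 points run from −0.51 for Kcnj10 to −4.41 for Mlc1, and in hindbrain GLASTneg cells all points lie between −0.37 and 0.29.

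Other markers moved in the same spinal cord libraries. The summed level of 8 astrocyte markers was 9312 to 14119 CPM in controls, 3781 to 14813 CPM at score 1, 2602 to 4162 CPM at score 4 and 3122 to 5967 CPM at the chronic stage. Of these 8, 4 fell and Gfap rose at score 1, and 6 fell and Gfap rose at score 4, where Slc1a2 was at −3.48, Fgfr3 at −4.92 and Gfap at 1.10 on the log2 scale. The sum of oligodendrocyte markers was 14358 to 41875 CPM in controls, 26912 to 62071 CPM at score 1, 30361 to 77684 CPM at score 4 and 25393 to 41609 CPM at the chronic stage. The myeloid sum was 14.4 to 42.6 CPM in controls, 47.3 to 154 CPM at score 1 and 55.1 to 176 CPM at the chronic stage. Group means of the oligodendrocyte precursor sum were 369 CPM in controls, 354 and 486 CPM at scores 1 and 4 and 1312 CPM at the chronic stage. The endothelial sum was 2.20 to 11.2 CPM in controls and 16.6 to 40.0 CPM at score 4, and the neuronal sum 209.8 to 400.2 CPM and 488 to 740.3 CPM. The mural sum (Pdgfrb, Rgs5, Kcnj8, Abcc9, Acta2 and Cspg4) had a mean of 56.9 CPM in controls and 161 CPM at the chronic stage. The endothelial means of these groups were 6.57 and 7.95 CPM. Which of the mural list's genes rose is not given here, so the sum does not stand for a number of mural cells. The Hox sum was 759.7 to 1320.2 CPM in controls and 191 to 398 CPM at score 4. Control replicate 3, with the highest oligodendrocyte sum of the controls, had their lowest Aqp4, Kcnj16, Dtna, Dag1 and Mlc1. Its Kcnj10, at 842 CPM, was the highest of the controls, and its Hepacam, at 604 CPM, was level with the highest. Fewer astrocytes among the sorted cells and less of a transcript per astrocyte cannot be told apart in such libraries, and the part of these markers in the endfoot results was not tested.

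**Figure D3:**
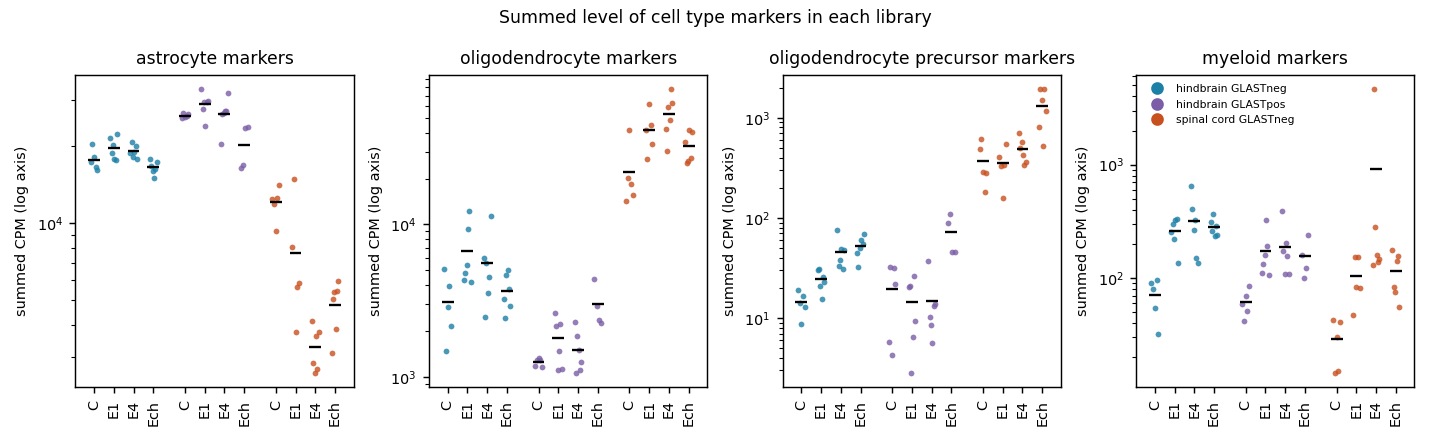
Summed CPM (log axis) of the marker lists for astrocytes, oligodendrocytes, oligodendrocyte precursors and myeloid cells in each EAE library, by population and stage, with 1 point per library. The spinal cord astrocyte sum is 2602 to 4162 CPM at score 4 against 9312 to 14119 CPM in controls, and 1 score 4 library stands apart with 4673 CPM of myeloid markers.

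The order of the stages was tested directly in the spinal cord. From score 1 to score 4, where 4.56% of all genes fell, 5 of 7 did: Aqp4 (log2 fold change −3.04, adjusted p = 2.4e-11), Kcnj16 (−2.18, adjusted p = 9.7e-11), Dtna (−0.81, adjusted p = 0.0011), Dag1 (−1.49, adjusted p = 3e-06) and Mlc1 (−3.13, adjusted p = 5.2e-15). Kcnj10 (−0.23, adjusted p = 0.44) and Hepacam (−0.43, adjusted p = 0.13) did not pass. In the fit of spinal cord libraries only, the Dtna call was lost (−0.78, adjusted p = 0.058), and with the sheet range added to it Aqp4 (−2.14, adjusted p = 0.074), Dag1 (−1.13, adjusted p = 0.27) and Dtna (−0.66, adjusted p = 0.4) did not pass. From score 4 to the chronic stage 3 of 7 passed, where 4.45% of all genes did in either direction. Hepacam fell further (−0.95, SE 0.17, adjusted p = 8e-05). Kcnj10 also fell (−0.51, adjusted p = 0.033) and Dag1 rose (0.73, adjusted p = 0.049), but the Kcnj10 call was lost without any 1 of 6 libraries and the Dag1 call without any 1 of 9. Both were also lost in the fit of spinal cord libraries only (Kcnj10 −0.53, adjusted p = 0.15; Dag1 0.71, adjusted p = 0.21), and the Hepacam call was lost with the sheet range added to that fit (−0.87, adjusted p = 0.12). Aqp4, Kcnj16, Dtna and Mlc1 did not pass between those stages, with differences of −0.49 (SE 0.30), −0.08 (SE 0.23), 0.04 (SE 0.17) and −0.16 (SE 0.24).

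Since paired subunits were measured in the same library, their ratio was taken per library and compared between stages with an exact two-sided permutation test over libraries, adjusted over 18 comparisons. A read stands for a transcript's 3′ end in this assay, so no length was divided out, and a ratio is read only against the same ratio in other groups. A ratio also depends on which cells a library held, since both genes need not come from the same cells. In spinal cord controls the lowest ratio of both pairs came from replicate 3, which had the highest oligodendrocyte sum. The part of other cells in the ratios was not tested. The Kcnj16 to Kcnj10 ratio in the spinal cord was 0.492 to 1.43 (median 0.992) in controls, 0.250 to 0.793 at score 1, 0.0943 to 0.248 (median 0.146) at score 4 and 0.111 to 0.342 (median 0.184) at the chronic stage. Neither late stage overlapped the controls, and the mean log2 ratio differed by −2.71 at score 4 and −2.35 at the chronic stage (exact permutation p = 0.0043, adjusted p = 0.019 in both, the smallest these group sizes allow). At score 1 the difference was −0.86 (exact permutation p = 0.063, adjusted p = 0.1).

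The Mlc1 to Hepacam ratio moved in the same libraries from 1.01 to 1.92 (median 1.68) in controls to 0.223 to 1.07 at score 1, 0.0670 to 0.192 at score 4 and 0.120 to 0.469 at the chronic stage. These are mean log2 differences of −1.30 (adjusted exact permutation p = 0.041), −3.82 and −3.00 (both adjusted exact permutation p = 0.019). In the hindbrain 2 of 12 ratio comparisons passed. The Kcnj16 to Kcnj10 ratio was higher in chronic GLASTneg cells by 0.32 (adjusted exact permutation p = 0.031) and the Mlc1 to Hepacam ratio lower in chronic GLASTpos cells by a mean log2 difference of −0.40 (adjusted exact permutation p = 0.041).

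**Figure D4:**
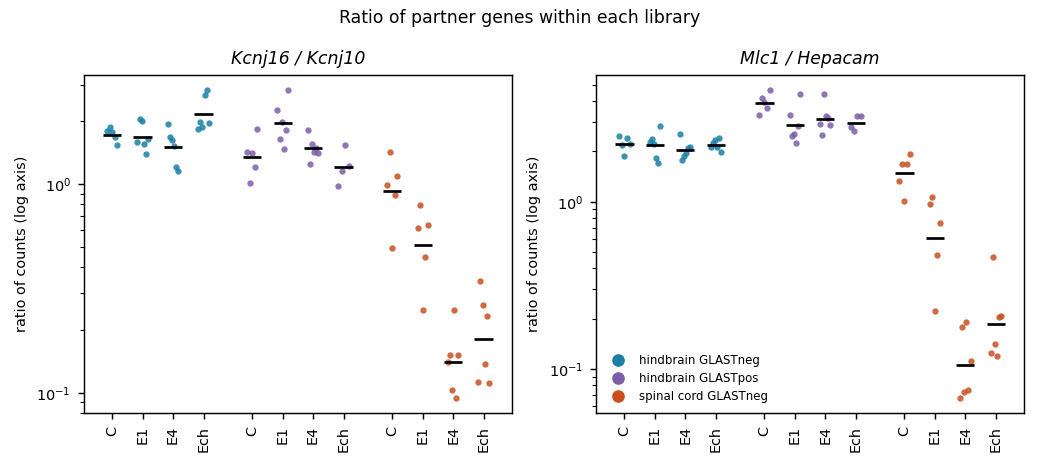
Ratio of Kcnj16 to Kcnj10 and of Mlc1 to Hepacam (log axis) in each EAE library by population and stage, 1 point per library. Spinal cord Mlc1 to Hepacam ratios at score 4, from 0.0670 to 0.192, all lie below the control range of 1.01 to 1.92.

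In hindbrain GLASTneg astrocytes none of the 7 genes passed at any stage by edgeR's quasi-likelihood test, where 0.677%, 0.755% and 0.197% of all genes passed in either direction at score 1, score 4 and the chronic stage. At an unadjusted p under 0.05 the counts were 0, 0 and 1, without a share of all genes at that threshold, and DESeq2 called 0. The log2 fold changes lay between −0.37 and 0.29, with standard errors from 0.16 to 0.31. Aqp4 was at 1558 to 2102 CPM (median 1645) in controls, 1458 to 1748 CPM (median 1530.5) at score 1, 1292 to 2039.8 CPM (median 1654) at score 4 and 1398 to 1728 CPM (median 1472) at the chronic stage. Kcnj16 ranged from 1068 to 1448 CPM in controls and from 881 to 1687 CPM over the 3 EAE groups. The groups overlapped for both genes.

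Kcnj10 in these cells was at 650.2 to 774 CPM (median 697) in controls, 527 to 814 CPM (median 768) at score 1, 659 to 998 CPM (median 875) at score 4 and 482 to 645 CPM (median 544) at the chronic stage. All chronic libraries lay below all controls (0.446% of all genes did so) and below all score 4 libraries (0.673%), without passing against controls (log2 fold change −0.37, adjusted p = 0.65) or against score 4 (−0.66, SE 0.15, adjusted p = 0.052; 0.0857% of all genes passed). The second of these passed with DESeq2 (−0.65, adjusted p = 0.00085) and in a fit of this population alone (−0.67, adjusted p = 0.0029). Dtna ranged over 684 to 896 CPM in controls and 446 to 904 CPM in EAE, Dag1 over 357 to 498 and 259.7 to 519 CPM, Mlc1 over 1414 to 1689.6 and 1079.9 to 1642 CPM, and Hepacam over 623 to 755 and 536 to 648 CPM. Their EAE and control libraries overlapped in each case.

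In hindbrain GLASTpos astrocytes Kcnj10 fell at score 1. It was at 757, 929, 701, 681 and 709 CPM in controls and at 423 to 541 CPM (median 461) at score 1, with no overlap, and the log2 fold change was −0.68 (SE 0.16, adjusted p = 0.0079). This was 1 of 7 genes, with 0.262% of all genes lower, and the call was lost without control replicate 2 (−0.60, adjusted p = 0.054). Kcnj10 was at 509 to 722 CPM at score 4 (−0.30, adjusted p = 0.29) and at 559, 383, 530 and 547 CPM at the chronic stage (−0.58, adjusted p = 0.076).

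No gene passed at score 4 or at the chronic stage in GLASTpos cells with edgeR's quasi-likelihood test, where 2.18% and 1.43% of all genes did in either direction. Of the 7 genes 0 and 3 had an unadjusted p under 0.05, a threshold at which the share of all genes was not taken. DESeq2 called 1, chronic Kcnj10 (−0.54, adjusted p = 0.014). At the chronic stage all libraries lay below all controls for 4 of 7 genes, Aqp4, Kcnj10, Kcnj16 and Mlc1, where 1.5% of all genes did so. Aqp4 was at 667 to 834 CPM in controls and at 466.01, 428, 622 and 487 CPM in chronic EAE (log2 fold change −0.63, SE 0.34, adjusted p = 0.3). Kcnj16 was at 823 to 1296 CPM and at 548, 443, 814 and 665 CPM (−0.73, SE 0.26, adjusted p = 0.14), and Mlc1 at 2313 to 2738 CPM and at 1377, 1587, 1943 and 2133 CPM (−0.49, SE 0.27, adjusted p = 0.31). This group had 4 libraries. Its astrocyte sum was 16331 to 23718 CPM against 25582 to 26905 CPM in controls, its oligodendrocyte sum 2270 to 4399 CPM against 1170.2 to 1336 CPM, its precursor sum 45.4 to 109 CPM against 4.24 to 32.6 CPM and its neuronal sum 272 to 497 CPM against 61.3 to 201 CPM, and their part in these values was not tested. Dtna at 612 to 906 CPM, Dag1 at 443 to 478 CPM and Hepacam at 492 to 652 CPM overlapped their controls at 889 to 1236, 405 to 551 and 524 to 699 CPM.

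Whether the change with EAE differed between spinal cord and hindbrain was tested as the difference between 2 log2 fold changes, in 42 tests of which 24 passed, all with the spinal cord lower. Against hindbrain GLASTneg cells, 6 of 7 genes differed at score 4 (6.20% of all genes were lower), from −0.81 for Kcnj10 (adjusted p = 0.012) to −4.19 for Mlc1 (SE 0.36, adjusted p = 2.5e-14), and Hepacam did not pass (−0.53, SE 0.25, adjusted p = 0.19). At the chronic stage 6 of 7 differed (5.47% of all genes), with Aqp4 at −3.80 and Kcnj16 at −3.25, and Kcnj10 did not pass (−0.66, SE 0.23, adjusted p = 0.056). Against hindbrain GLASTpos cells 6 of 7 differed at score 4 (8.72% of all genes) and 6 of 7 at the chronic stage (8.85%), and Kcnj10 did not pass in either (−0.21, SE 0.22, adjusted p = 0.72 and −0.45, SE 0.24, adjusted p = 0.23). Hepacam's difference from GLASTpos cells at score 4 (−0.79, adjusted p = 0.023) was lost without control GLASTpos replicate 5 (−0.70, adjusted p = 0.063) or score 4 GLASTpos replicate 6 (−0.70, adjusted p = 0.052). These comparisons share the spinal cord libraries. The sheet number was at most 56 in 0 of 5 spinal cord controls, 5 of 6 score 4 and 2 of 6 chronic libraries. In the hindbrain its range did not change with stage, with all GLASTneg libraries at or below 56 and all GLASTpos libraries above. The part of the sheet in the response differences was not tested.

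At score 1 no gene's response differed between spinal cord and hindbrain in edgeR's test. At the same adjusted threshold 0.146% of all genes were lower against GLASTneg cells and 1.39% against GLASTpos cells. At an unadjusted p under 0.05 the counts were 3 and 4 of 7, and the share of all genes at that threshold was not taken. DESeq2 called 2, Dtna (−0.78, adjusted p = 0.029) and Mlc1 (−1.09, adjusted p = 0.042), both against GLASTpos cells. Without spinal cord replicate 2 of score 1, Kcnj16, Dag1 and Mlc1 passed against both, for example Mlc1 at −1.57 (adjusted p = 0.0021) against GLASTneg cells. Between both hindbrain populations no response differed by edgeR at any stage (0.00857%, 0.00857% and 0.06% of all genes in either direction) and 0 by DESeq2. At an unadjusted p under 0.05 the counts were 1, 1 and 0, again without a share of all genes at that threshold. Kcnj10 came nearest, with −0.70 (SE 0.23, adjusted p = 0.32) at score 1.

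Control libraries give the order of the populations without disease. Aqp4 was highest in hindbrain GLASTneg cells (mean 1729 ± 226 CPM, SD, n = 5), followed by spinal cord (955 ± 70.4) and hindbrain GLASTpos cells (778 ± 64.7). GLASTpos cells were below GLASTneg cells (log2 difference −1.15, SE 0.32, adjusted p = 0.0094), while the steps from hindbrain GLASTneg to spinal cord (−0.86, SE 0.32, adjusted p = 0.12) and from GLASTpos to spinal cord (0.30, SE 0.32, adjusted p = 0.6) did not pass. Mlc1 had another order, with hindbrain GLASTpos highest (2477 ± 173 CPM), then GLASTneg (1496 ± 114) and spinal cord (813 ± 127). All 3 comparisons passed, with 0.73 (adjusted p = 0.041) from GLASTneg to GLASTpos, −0.88 (adjusted p = 0.021) from GLASTneg to spinal cord and −1.61 (adjusted p = 1e-06) from GLASTpos to spinal cord. The first of these was lost without any 1 of 9 libraries.

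Dtna was at 1068 ± 164 CPM in hindbrain GLASTpos, 754 ± 85.7 in GLASTneg and 494 ± 97.8 in spinal cord cells, and Dag1 at 487 ± 68.1, 453 ± 60.2 and 248 ± 40.0 CPM. Both were lower in spinal cord than in hindbrain GLASTpos cells (Dtna −1.11, adjusted p = 4.8e-06 and Dag1 −0.98, adjusted p = 0.0024) and than in GLASTneg cells (−0.61, adjusted p = 0.039 and −0.87, adjusted p = 0.019), and neither passed between the hindbrain populations (0.50, adjusted p = 0.064 and 0.11, adjusted p = 0.9). Kcnj16 was lower in spinal cord (648 ± 166 CPM) than in hindbrain GLASTneg cells (1227 ± 144; −0.92, adjusted p = 0.011) and did not pass against GLASTpos cells (1026 ± 178; −0.66, adjusted p = 0.052). Kcnj10, at means from 688 to 755 CPM, and Hepacam, at means from 542 to 674 CPM, did not pass in any of these comparisons. Spinal cord was thus lower than hindbrain GLASTneg cells for 4 of 7 genes, with 2.25% of all genes lower, but each of these 4 calls was lost without spinal cord control replicate 3 (Kcnj16 −0.80, adjusted p = 0.072; Dtna −0.51, adjusted p = 0.17; Dag1 −0.79, adjusted p = 0.081; Mlc1 −0.79, adjusted p = 0.088). Spinal cord was lower than GLASTpos cells for 3 of 7 (6.71% of all genes), and GLASTpos and GLASTneg cells differed for 2 of 7 (13.5% in either direction). The oligodendrocyte sum was 14358 to 41875 CPM in spinal cord controls, while the means of the hindbrain GLASTpos and GLASTneg controls were 1255 and 3112 CPM, and its part in these differences was not tested. All hindbrain GLASTneg libraries had sheet numbers of at most 56 and all GLASTpos libraries higher ones, so GLAST and the sheet cannot be told apart there. All spinal cord controls also had numbers above 56, so spinal cord and the sheet cannot be told apart in the comparison with GLASTneg controls.

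Genes that work with the endfoot list moved in part. For the counts that follow, the shares of all genes that fell in spinal cord were the 4.48%, 12.7% and 11% given above, and those that rose were 3.94% at score 1, 9.76% at score 4 and 7.64% at the chronic stage. Of 10 further members of the dystrophin-associated complex, 3 fell in spinal cord at score 1, and 1 rose and 4 fell both at score 4 and at the chronic stage, with median log2 fold changes of 0.00, −1.11 and −0.96. Dmd, dystrophin itself, went from 285 ± 68.5 CPM (SD, n = 5) in controls to 40.7 ± 7.92 CPM (n = 6) at score 4 (−2.81, adjusted p = 7.8e-13), and its relative Utrn from 124 ± 58.4 to 9.17 ± 8.62 CPM (−3.77, adjusted p = 6e-13). The sarcoglycan Sgcb rose at score 4 (0.87, adjusted p = 0.0045).

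Of 13 enzymes that glycosylate dystroglycan, 1 fell at score 1 and 4 fell at each later stage. Pomt1 and Pomt2, which start the sugar chain, were at −1.83 (adjusted p = 3.1e-05) and −1.13 (adjusted p = 0.0027) at score 4. Of 10 ligands of dystroglycan 1 fell at score 1, 4 fell at score 4, and at the chronic stage 3 fell and 1 rose. The laminin chain Lama2 went from 41.9 ± 16.1 to 5.89 ± 4.34 CPM at score 4 (−2.77, adjusted p = 2.6e-09), and Lamc1 rose at the chronic stage (1.01, adjusted p = 0.018).

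Among 18 other genes of ion, water and volume control 2 rose and 3 fell at score 1, 4 rose and 7 fell at score 4, and 3 rose and 7 fell at the chronic stage. Slc4a4, a sodium bicarbonate cotransporter, dropped from 2467 ± 399.9 CPM to 76.6 ± 54.8 CPM at score 4 (−5.01, adjusted p = 8.4e-21) and the potassium channel Kcnk1 from 339 ± 71.3 to 17.5 ± 8.14 CPM (−4.27, adjusted p = 3.7e-15). Lrrc8c, a volume-regulated anion channel subunit, rose at each stage (1.61, 1.73 and 1.47; adjusted p = 0.00022, 6.5e-06 and 0.00013). In the hindbrain 2 genes of this list passed as higher at score 1 and 2 at score 4 in GLASTneg cells, 2 and 1 in GLASTpos cells, and 1 glycosylation enzyme passed as higher in chronic GLASTpos cells. The shares of all genes that rose were 0.66% and 0.725% in GLASTneg cells at scores 1 and 4, and 1.32%, 1.75% and 1.24% in GLASTpos cells at score 1, score 4 and the chronic stage.

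Over the 12 group means of the EAE experiment the 7 genes were alike to different degrees, with Pearson r from 0.555 for Kcnj10 and Dag1 to 0.983 for Dtna and Mlc1. The most alike of the 6796 genes whose mean reached 20 CPM were Itga6 for Aqp4 (r = 0.994), Cr1l for Kcnj10 (0.914), Egfr for Kcnj16 (0.995), Sfxn5 for Dtna (0.994), Msi2 for Dag1 (0.994), Acsbg1 for Mlc1 (0.998) and Ppp1r1b for Hepacam (0.976). The 12 points share populations, libraries and the changing marker sums, so these values are a description.

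In FVB/N mice the names of the groups differed between sources. The names in the labels and those in the study's supplement differ for 12 of 15 libraries. The libraries labelled spinal cord GLASTneg had Hox sums of 1.03 to 20.3 CPM, against 1042 to 1082 CPM in those labelled hindbrain GLASTneg. Their means of Slc1a3, the gene of GLAST, were 10163 and 770 CPM. The supplement names these libraries hindbrain GLASTpos and spinal cord GLASTneg. Its hindbrain GLASTneg libraries, labelled forebrain GLASTpos, had a mean Hox sum of 103 CPM, against 83.8 CPM in EAE hindbrain GLASTneg controls. For these groups the markers went with the supplement's names rather than the labels. Results are given by label, with those under the supplement's names beside them. A labelled group may therefore not hold the cells its label names. A test of any difference among the 5 groups does not depend on the names, and passed for 3 of 7 genes, Aqp4 (adjusted p = 6.3e-10), Kcnj10 (adjusted p = 1.2e-05) and Mlc1 (adjusted p = 0.0025), and for 10.2% of 14957 genes (edgeR quasi-likelihood test). Kcnj16, Dtna, Dag1 and Hepacam did not pass (adjusted p = 0.27, 0.25, 0.81 and 0.61), and their levels over the 15 libraries were 279 to 575, 317 to 744, 364 to 570.0 and 505 to 919 CPM.

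Aqp4 was at 2475, 2971 and 3175 CPM in the libraries labelled forebrain GLASTpos and at 2329.9, 2736 and 2677 CPM in those labelled hindbrain GLASTneg. It was at 1096, 1275 and 1301 CPM in those labelled forebrain GLASTneg, at 1015, 1026 and 1092 CPM in those labelled hindbrain GLASTpos and at 997, 1692 and 2022 CPM in those labelled spinal cord GLASTneg. The first 2 groups overlapped each other and lay above all others. By label, Aqp4 was lower in hindbrain GLASTpos than GLASTneg libraries (log2 difference −1.31, SE 0.21, adjusted p = 1.4e-06) and higher in forebrain GLASTpos than GLASTneg libraries (1.23, SE 0.21, adjusted p = 1.6e-05). Under the supplement's names the hindbrain difference was −0.87 (adjusted p = 0.003) and the forebrain one did not pass (−0.23, adjusted p = 1), so the forebrain call depends on the names.

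Kcnj10 was at 1536, 1565 and 1674 CPM in the libraries labelled hindbrain GLASTneg and between 569 and 1288.5 CPM in the others. Mlc1 was at 1931, 2132 and 1567 CPM in those labelled spinal cord GLASTneg, at 1669, 1492 and 1605.5 CPM in those labelled hindbrain GLASTpos and at 843, 866 and 1233 CPM in those labelled hindbrain GLASTneg. By label the hindbrain comparison of GLASTpos with GLASTneg passed for 3 of 7 genes, with 4.29% of all genes in either direction, namely Aqp4, Kcnj10 (−1.23, adjusted p = 1.7e-05) and Mlc1 (0.70, adjusted p = 0.03; lost without any 1 of 5 libraries). The forebrain comparison passed for 1 (1.32%) and spinal cord against the mean of the brain groups for 1, Mlc1 (0.58, adjusted p = 0.0074; 9.38%). Under the supplement's names these counts were 2 (4.11%), 0 (0.181%) and 3 (5.22%). The spinal cord comparison then had Aqp4 at 0.74, Kcnj10 at 0.91 and Mlc1 at −0.59, each reversed from its direction by label. The oligodendrocyte sum was 10777 to 15303 CPM in the libraries labelled hindbrain GLASTneg and 1354 to 6420 CPM in the others, and its part was not tested.

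**Figure D5:**
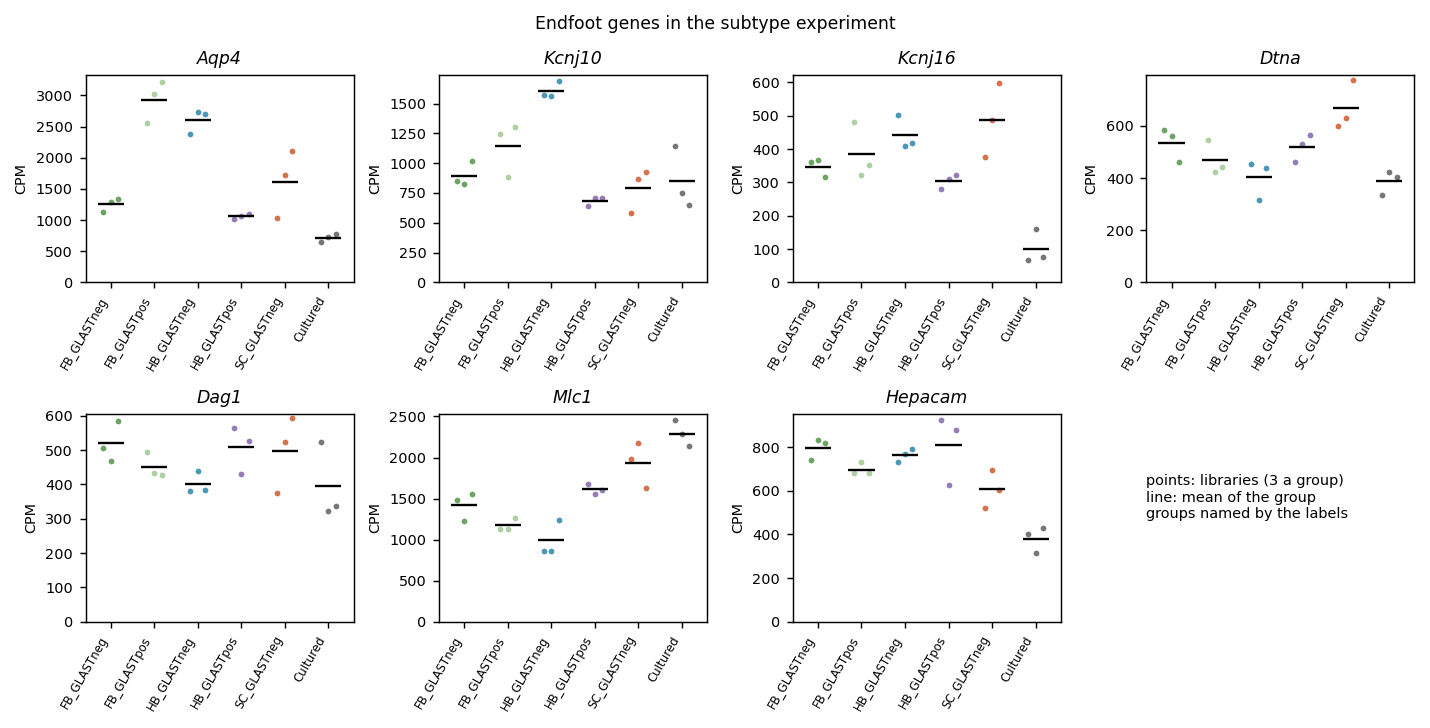
Level of each endfoot gene (CPM scaled over all 18 libraries, linear axis) in the subtype experiment, with 1 point per library in the 5 labelled FVB/N groups and the cultured group. Cultured Kcnj16 lies at 67.2 to 160 CPM, below all 15 isolated libraries at 280 to 597 CPM, and cultured Mlc1 at 2136 to 2453 CPM.

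Cultured astrocytes differed from isolated ones in 4 of 7 genes, where 36% of 17126 genes did in either direction and the median of all genes was 0.43 higher. The effects of culture, of age and of strain cannot be told apart in this comparison. With scaling over all 18 libraries, Kcnj16 was at 67.2, 76.1 and 160 CPM in culture and at 280 to 597 CPM (median 366) in isolated cells, a log2 difference of −1.94 (SE 0.24, adjusted p = 1.1e-08). Aqp4 was at 654, 724 and 777 CPM and at 1019 to 3206 CPM (−1.28, SE 0.18, adjusted p = 1.9e-07), and Hepacam at 314, 400 and 430.0 CPM and at 519 to 922 CPM (−0.94, SE 0.18, adjusted p = 5.6e-05). For each of these the cultured and isolated libraries did not overlap. The share of all genes without overlap was not taken for this comparison, so overlap here only describes the levels. Mlc1 was higher in culture, at 2136, 2281 and 2453 CPM against 862 to 2172 CPM (0.72, SE 0.15, adjusted p = 0.00012), with 14 of 15 isolated libraries below all cultured ones.

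Dtna (−0.40, SE 0.18, adjusted p = 0.082), Kcnj10 (−0.21, SE 0.18, adjusted p = 0.4) and Dag1 (−0.26, SE 0.19, adjusted p = 0.3) did not pass. Without cultured replicate 1 Kcnj10 (−0.52, adjusted p = 0.044) and Dag1 (−0.56, adjusted p = 0.047) did. Cultured libraries held 416 to 3307 CPM of myeloid markers and 764 to 2894 CPM of mural markers. Their astrocyte sum was 4418 to 4705 CPM, against 14330.0 to 29305 CPM in isolated libraries when scaled among themselves. The part of these markers was not tested. Of all genes 26.3% were higher and 9.79% lower in culture. Of the wider lists, 5 ligands rose and 1 fell among 9 tested, with Lamb2 at 483 ± 3.83 CPM (SD, n = 3) against 71.9 ± 22.8 CPM (n = 15; 2.76, adjusted p = 2.1e-14), 2 genes of the complex rose and 1 fell among 9, 4 of 13 glycosylation enzymes fell, and 3 ion and volume genes rose and 8 fell among 18, with Kcnk2 at 4.00 (adjusted p = 4.8e-17) and Slc4a4 at −4.12 (adjusted p = 6.4e-18).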

How the data were processed

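RNA of sorted astrocytes was made into QuantSeq 3′ libraries and read as 50 bp single ends. Per the submitters' processing notes and the study's methods, the authors aligned reads to GRCm38 with HISAT 0.1.5, counted them per gene (Ensembl 82) with HTSeq 0.6.1p1 in union mode and deposited the counts without normalization. Whether counting used the strand is not given in the sources used here. Antisense genes that overlap Aqp4 and Dtna were not used here.

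Conditions came from the sample labels. Counts of all 66 EAE libraries were tested in 1 fit by quasi-likelihood in edgeR 4.0.16 (R 4.3.3) with TMM scaling, and those of the 15 isolated libraries and of all 18 subtype libraries in 2 others, keeping genes whose counts summed to 10 or more (23324, 14957 and 17126 genes). P-values are two-sided and were adjusted by Benjamini-Hochberg over all genes of a fit, with 0.05 as the threshold. CPM are per 1e6 counts, and 0.5 was added to counts for ratios. Fits of the spinal cord EAE libraries alone and of the isolated libraries were tested on simulated data. Most of the smaller changes were missed there, so a gene that did not pass may still have changed. The fit of all 66 EAE libraries was not tested in this way. The labels do not state that libraries of a group came from separate animals, so p-values measure the spread between libraries, which may in part be technical.

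Alternatives were DESeq2 1.42.0 and its size factors (RLE), edgeR's filterByExpr or no filter, the replicate number as a block, fits of 1 population only, the sheet range as a covariate, voom of limma 3.58.1 with the library number as a block, the supplement's group names, forebrain groups alone against culture, and each library left out in turn, which kept the dispersion trend of the full fit. Leaving out 2 spinal cord libraries together and the alternatives for ratios were chosen after seeing the data. The members, lists and rules were chosen with earlier results of these data known. Beyond the members, the rule named up to 3 genes per wider list and direction with the largest change among those that passed with a mean of at least 5 CPM, in spinal cord stages and in culture, and the 2 genes most alike to each member over group means, of which the text gives a selection.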

Additional observations from a re-analysis of the deposited data

Results flagged for a closer look

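The response to EAE differed between spinal cord and hindbrain in 24 of 42 tests, each as the difference of 2 log2 fold changes against controls with an adjusted p under 0.05 (edgeR quasi-likelihood test). At score 4 the spinal cord minus hindbrain GLASTneg difference was −3.45 for Aqp4, −0.81 for Kcnj10, −3.31 for Kcnj16, −1.60 for Dtna, −2.22 for Dag1 and −4.19 for Mlc1. At the chronic stage it was −3.80 for Aqp4, −3.25 for Kcnj16, −1.82 for Dtna, −1.24 for Dag1, −4.35 for Mlc1 and −1.39 for Hepacam. Against hindbrain GLASTpos cells the score 4 differences were −3.22 for Aqp4, −3.04 for Kcnj16, −1.67 for Dtna, −2.46 for Dag1, −4.21 for Mlc1 and −0.79 for Hepacam. The chronic ones were −3.37 for Aqp4, −2.57 for Kcnj16, −1.36 for Dtna, −1.39 for Dag1, −4.08 for Mlc1 and −1.49 for Hepacam. The spinal cord astrocyte sum fell in the same libraries, and the sheet range differed between stages in spinal cord but not in hindbrain. The part of either was not tested.

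Single libraries stood apart from the rest of their group by a gap test in 6 of 84 combinations of gene and group, where chance at 1 in 20 gives 4.2. Aqp4 was low in control GLASTpos replicate 3 (667 CPM), spinal cord control replicate 3 (834 CPM) and score 4 GLASTpos replicate 2 (515 CPM), and high in score 1 GLASTpos replicate 6 (828.7 CPM). Kcnj10 was low in chronic GLASTpos replicate 2 (383 CPM), and Mlc1 was low in score 1 GLASTpos replicate 4 (1530.0 CPM).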

How the results depend on the processing

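With DESeq2, RLE scaling, filterByExpr, no filter or the replicate number as a block, the counts of endfoot genes that passed were 18, 17, 18, 17 and 18 of 21 for spinal cord stages against controls, where the main count was 17, and 0 of 21 in hindbrain GLASTneg cells throughout. The replicate block changed the call of Dag1 at score 1 in spinal cord (−0.75, adjusted p = 0.045) and of Dag1 from score 4 to the chronic stage (0.72, adjusted p = 0.055). Same-numbered libraries did not deviate together (mean correlation −0.0066, against 0.0015 for other pairs), so the numbers were not taken to pair libraries. The hindbrain GLASTpos count moved from 1 to 2 with filterByExpr and with DESeq2, which added chronic Kcnj10 (−0.58, adjusted p = 0.045, and −0.54, adjusted p = 0.014), and to 0 without control replicate 2. In fits of 1 population only, calls numbered 14 of 21 for spinal cord stages, 6 of 42 between stages and 42 of 150 for the wider lists, where the main count was 57 of 153. With the sheet covariate added to the spinal cord fit, 29 of 150 passed in the wider lists and Pomgnt2, a glycosylation enzyme, reversed at score 4 (0.11). Of 35 library numbers in the labels 31 recur in more than 1 population, and libraries of a stage that share a number had a mean correlation of 0.0552 against −0.0065 for the others. With that number as a block, voom gave 29 of 63 response differences between populations in place of 24, and 12 of 21 population differences in controls in place of 9. In the culture comparison the median log2 difference of all genes moved by −0.11 with RLE, −0.22 with DESeq2, −0.35 with filterByExpr and 0.28 without a filter, and with voom by −0.50 between both hindbrain control populations and by −0.37 and 0.22 between spinal cord and hindbrain GLASTneg and GLASTpos controls.

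Without each library in turn the counts were 16 to 19 of 21 for spinal cord stages, 0 to 0 and 0 to 1 of 21 for hindbrain GLASTneg and GLASTpos stages, 6 to 9 of 42 between stages (main 8), 23 to 30 of 63 for response differences between populations, 5 to 9 of 21 between control populations, 4 to 5 of 21 between FVB/N populations (main 5), 4 to 6 of 7 for culture (main 4) and 45 to 61 of 153 for the wider lists. The 5 came without spinal cord control replicate 3. Under the supplement's names Aqp4 (0.74), Kcnj10 (0.91) and Mlc1 (−0.59, spinal cord against brain) reversed. For Aqp4 in forebrain (−0.23, GLASTpos against GLASTneg) the sign also changed, but the difference did not pass. The cause of these changes was not tested.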

Other observations

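Aquaporin-9, a water and solute channel from the same gene family as Aqp4, was sparse in spinal cord and lower in EAE. Aqp9 was at 17.96 ± 5.67 CPM (SD, n = 5) in controls, 0.471 ± 0.518 CPM (n = 6) at score 4 and 0.296 ± 0.60 CPM (n = 6) at the chronic stage (adjusted p = 3.5e-09 and 2.8e-10, edgeR). Lamb2, a laminin chain of basement membranes, was at 17.3 ± 3.92 CPM in spinal cord controls and at 0.871 ± 1.92 CPM at score 4 (adjusted p = 3.1e-08). Before TMM scaling, 3 counts stood for 0.613 to 1.69 CPM in spinal cord libraries at score 4 and 0.713 to 1.38 CPM at the chronic stage. The Aqp9 means of these stages thus lay under 3 counts and that of Lamb2 near it, so their size is uncertain. In culture Lama5 was at 72.4 ± 5.20 CPM (n = 3) against 7.03 ± 4.74 CPM (n = 15) in isolated cells (adjusted p = 1.2e-07), and the basement membrane proteoglycan Hspg2 at 44.1 ± 14.9 against 2.71 ± 2.52 CPM (adjusted p = 2.4e-07), while Lama2 was lower (12.6 ± 3.13 against 52.2 ± 35.3 CPM, adjusted p = 7.3e-05). Culture, age and strain cannot be told apart there.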
